A study of Rattus norvegicus with 18 samples.

Results

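A set of 736 mRNA isoforms was present in rat hippocampus and listed at 0 in all brain fractions of a polysome profiling experiment. They were chosen from 28268 full-length transcripts by their measured levels: the mean of the 2 hippocampus libraries was above 1 TPM (an isoform's share of all transcripts in a library, in parts per 1000000), and all 6 brain libraries were at exactly 0 TPM. The 736 isoforms made up 2.60% of all isoforms and 3.70% of the 19915 isoforms above 1 TPM in hippocampus. The other 19179 isoforms above that limit, which had a level above 0 in at least 1 brain library, are the set they are compared with. Since the hippocampus and brain levels chose the isoforms, those levels are given as a description and were not tested.

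The study assembled full-length transcripts of rat hippocampus from long PacBio reads. It kept those with both ends close to separately mapped transcript start and end sites, and measured each isoform by Illumina sequencing. All 12 libraries used here came from Sprague Dawley rats, aged 4 weeks by the labels, with no genetic change or treatment given. The hippocampus group had 2 libraries of whole tissue. The somata and neuropil groups had 2 libraries each, cut by microdissection from hippocampal slices of male animals, where somata is the CA1 layer of cell bodies and neuropil the CA1 layer of dendrites and axons. The ribosome-free, monosome and polysome groups had 2 libraries each, taken from a sucrose gradient of whole-brain lysate from which nuclei and membrane debris had first been spun out. Whole brain includes the hippocampus together with all other regions, so the brain libraries are not a separate tissue. The methods name different library kits for hippocampus and brain. Nothing in the labels says that the replicates are separate animals, so a p-value measures only the spread between libraries, which may be technical.

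Most mammalian genes give rise to several mRNA isoforms that differ in promoter, splicing or polyadenylation site and share much of their sequence. Polysome profiling sorts RNA by the number of bound ribosomes, so that actively translated mRNA sediments in the polysome fraction and untranslated RNA stays in the ribosome-free fraction. RSEM, the program that gave the levels, assigns ambiguous reads to isoforms in fractions by expectation maximization. A level of 0 is therefore the outcome of a fit, and it can also arise where all shared reads were given to another isoform. TPM do not retain the depth of a library, and how many reads a 0 rests on is unknown. Between 27.7% and 38.5% of all isoforms were listed at 0 in a single brain library, between 30.9% and 32.2% in a hippocampus library and between 34.0% and 36.0% in a CA1 library. In bulk samples such as these, fewer cells of a type and less RNA per cell cannot be told apart. The tables hold isoform identifiers and no gene names, so the labelled tissues could not be checked against marker genes.

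The isoforms at 0 in brain were mostly of low abundance in hippocampus. Their mean level ran from 1.01 to 677.2 TPM, with quartiles of 1.98, 4.70 and 11.1 TPM, against quartiles of 4.74, 13.0 and 40.3 TPM for the other isoforms above the limit. A level above 10 TPM was held by 201 of them (27.3%, against 56.5% of the others), above 50 TPM by 45 and above 100 TPM by 16. Together they took 1.05% of all TPM in hippocampus replicate 1 and 1.18% in replicate 2. The share of isoforms at 0 in brain fell with each step in level. It was 10.2% of isoforms between 1 and 2 TPM, 4.26% between 5 and 10 TPM, 1.80% between 20 and 50 TPM and 1.11% above 50 TPM.

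The limits cut through a continuous range. Just inside the hippocampus limit lay isoforms of 1326 nt (2.02 and 0 TPM in replicates 1 and 2), 2844 nt (0 and 2.02 TPM) and 1742 nt (0 and 2.06 TPM). Just outside lay isoforms of 1154 nt (0 and 2 TPM), 1193 nt (0 and 1.98 TPM) and 1182 nt (0 and 1.97 TPM), all at 0 in brain. All 6 were listed at 0 in 1 hippocampus replicate. On the brain side, the nearest isoforms outside had 0.01 TPM in 1 of the 6 libraries and 0 in the other libraries, with 7.25 and 0.05, 2.22 and 0, and 0.38 and 9.65 TPM in hippocampus. In all, 3712 isoforms (13.1%) were at 0 in all 6 brain libraries, and 2739 of these were also at 0 in both hippocampus replicates. The opposite pattern was also seen: of 19662 isoforms with a mean above 1 TPM over the brain libraries, 1848 (9.40%) were at 0 in both hippocampus replicates.

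Agreement between the hippocampus replicates was poorer for the isoforms at 0 in brain than for the others. Replicate 1 listed 216 of them at 0 and replicate 2 listed 147, together 363 of 736 (49.3%, against 13.8% of the others). In 85 of these the replicate above 0 held 10 TPM or more, up to 61.9 TPM. Only 203 isoforms (27.6%, against 63.2%) lay within 2-fold between replicates, and 320 (43.5%, against 81.4%) were above 1 TPM in both. The SD of the difference between replicates was 2.30 on the log2(TPM + 1) scale, against 1.40. Pearson's r was 0.32 across the 736 isoforms and 0.79 across the 19179 others, a description in which all isoforms of a set share the same 2 libraries. Replicate 2 held the higher value in 60.1% of the isoforms at 0 in brain and in 59.9% of the others.

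**Figure D1:**
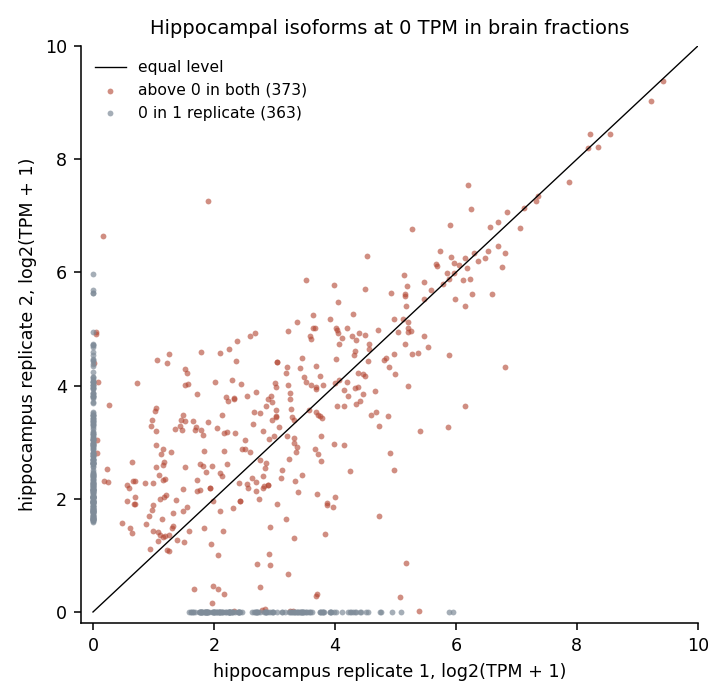
Level of each of the 736 isoforms in hippocampus replicate 1 (horizontal axis) and replicate 2 (vertical axis), both as log2(TPM + 1), with a line at equal levels. The 363 isoforms listed at 0 in 1 replicate lie on the axes, and the 373 above 0 in both draw together along the line as the level rises.

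The poorer agreement was also seen at matched levels. Between 1 and 2 TPM, 82.3% of the isoforms at 0 in brain were at 0 in 1 hippocampus replicate, against 61.1% of the others. Between 10 and 20 TPM the shares were 20% and 4.48%, and above 50 TPM both were 0%. Levels within 2-fold were held by 9.14% against 17.6% between 1 and 2 TPM, by 38.9% against 67.4% between 10 and 20 TPM and by 91.1% against 96.1% above 50 TPM. At the top of the range the 2 hippocampus libraries thus gave nearly the same level: 41 of the 45 isoforms above 50 TPM and 15 of the 16 above 100 TPM lay within 2-fold. The range above 50 TPM has no upper limit, so levels in it were not matched.

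The 10 isoforms with the highest hippocampus level were all found at 137.89 TPM or more in both hippocampus replicates. The highest was RNN_LD4.112_sub_9126_3783_3668_5338_1670_SUB0_pNAp_35, a transcript of 1670 nt with 685.75 TPM in replicate 1 and 668.62 TPM in replicate 2. It was listed at 0 in all 4 CA1 libraries, so among the 12 libraries only the 2 of hippocampus gave it a level. The isoform in the row before it in the deposited table, of 1444 nt, had 81.58 and 141.62 TPM in hippocampus, 551.12 and 606.76 TPM in the ribosome-free libraries and 0 TPM in the monosome libraries. In the polysome libraries that neighbour had 0 and 0.63 TPM. The row after, of 701 nt, was at 0 in all 12 libraries.

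The second, RNN_LD4.107_ccs_147121_1450_0_1450_1450_SUB0_pTNp_52 of 1450 nt, had 595.73 and 521.51 TPM in hippocampus. It was also found in CA1, at 153.37 and 73.12 TPM in somata and 109.77 and 113.36 TPM in neuropil, so the compartments overlapped. Its neighbour before, of 1847 nt, was lower in hippocampus (91.98 and 139.57 TPM) and was found in all 6 brain libraries, from 187.89 TPM in monosome replicate 1 to 616.45 TPM in polysome replicate 1. The third, RSN_LD3.105_sub_89754_3308_0_2535_2535_SUB0_uNAp_45 of 2535 nt, had 371.55 and 347.03 TPM in hippocampus, 256.67 and 224.33 TPM in somata and 38.05 and 238.9 TPM in neuropil. Its 2 neuropil libraries lay far apart. The row after it, of 2505 nt, had 758.75 and 696.9 TPM in hippocampus and lay between 226.82 and 651.66 TPM in the 6 brain libraries.

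Among the next 5, the isoform of 862 nt, RNN_LD3.109_ccs_48091_862_0_862_862_SUB0_pTNp_25, had the highest mean in CA1 of all 57 isoforms found in all 4 CA1 libraries. It had 323.91 and 296.69 TPM in hippocampus, 228.42 and 218.99 TPM in somata and 211.51 and 183.03 TPM in neuropil. The row after it, of 961 nt, was found in every library, at 243.81 and 184.06 TPM in hippocampus and from 361.59 to 780.27 TPM in brain. The isoform of 3242 nt, RNN_LD3.110_ccs_66370_3242_0_3242_3242_SUB0_uNAp_32, showed a row before it with the opposite pattern. It had 294.77 and 346.7 TPM in hippocampus and 0 in brain, whereas the 2752-nt isoform before it had 0 and 4.43 TPM in hippocampus and 129.22 and 150.89 TPM in the ribosome-free libraries. The isoform of 1558 nt, RNN_LD4.104_ccs_51567_1558_0_1558_1558_SUB0_pNAp_25, had 163.55 and 162.98 TPM in hippocampus. Its neighbour before, of 1565 nt, had 16.69 and 27.94 TPM in hippocampus and from 119.44 to 688.72 TPM in brain. These neighbours were of nearly the same read length, and the isoform at 0 in brain was the higher of them in hippocampus.

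The isoform of 3347 nt, RSN_LD4.104_sub_53112_4348_4498_7845_3347_SUB0_uNAp_42, had 232.84 and 191.69 TPM in hippocampus and was nearly missing from CA1, with 0.06 TPM in somata replicate 1 and 0 in the other 3 libraries. RSN_LD4.102_ccs_99518_3276_0_3276_3276_SUB0_pTNp_21, of 3276 nt, had 158.67 and 152.42 TPM in hippocampus and was at 0 in all 4 CA1 libraries. RNN_LD4.114_ccs_141526_3207_0_3207_3207_SUB0_pTNp_26, of 3207 nt, had 137.89 and 140.27 TPM in hippocampus, 65.15 and 0.28 TPM in somata and 191.33 and 60.37 TPM in neuropil. Of the 10 highest, 7 were thus found in all 4 CA1 libraries, and 3 had hippocampus replicates within 2-fold but 0 or nearly 0 in the CA1 part of the same structure.

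The other rows next to these isoforms varied widely in level. Next to the isoform of 3276 nt, the row before, of 4136 nt, had 227.9 and 399.78 TPM in hippocampus, between 160.4 and 260.59 TPM in CA1 and between 15.07 and 33.26 TPM in brain, and the row after, of 2946 nt, had 0 and 5.66 TPM in hippocampus and up to 7.41 TPM in brain. Next to the isoform of 3347 nt, the row before, of 1533 nt, was at 0 in hippocampus and brain and between 4.39 and 25.35 TPM in CA1, whereas the row after, of 1264 nt, was at 0 in all 12 libraries. Next to the isoform of 3207 nt, the row before, of 2867 nt, was at 0 in all 12 libraries, and the row after, of 9006 nt, had 180.66 and 150.96 TPM in hippocampus and between 97.04 and 203.31 TPM in brain. Neighbours at 0 in every library and neighbours found in every library thus both occurred.

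Among the remaining neighbours, the row after the isoform of 1450 nt, of 3166 nt, had 108.82 and 105.87 TPM in hippocampus and between 33.58 and 107.86 TPM in brain. The row before the isoform of 2535 nt, of 3144 nt, had 115.11 and 89.98 TPM in hippocampus and between 1.23 and 193.41 TPM in brain, with both polysome libraries above the other 4. The row after the isoform of 3242 nt, of 2566 nt, had 151.16 and 124.44 TPM in hippocampus and between 23.76 and 107.51 TPM in brain. These 3 neighbours were found in every library. The row before the isoform of 862 nt, of 2672 nt, lay outside its row run (defined below). That row had 115.1 and 131.9 TPM in hippocampus and between 11.47 and 50.72 TPM in brain. The row after the isoform of 1558 nt, of 1720 nt, had 16.2 and 7.96 TPM in hippocampus and 9.92 TPM in monosome replicate 2 as its only level above 0 in brain.

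**Figure D2:**
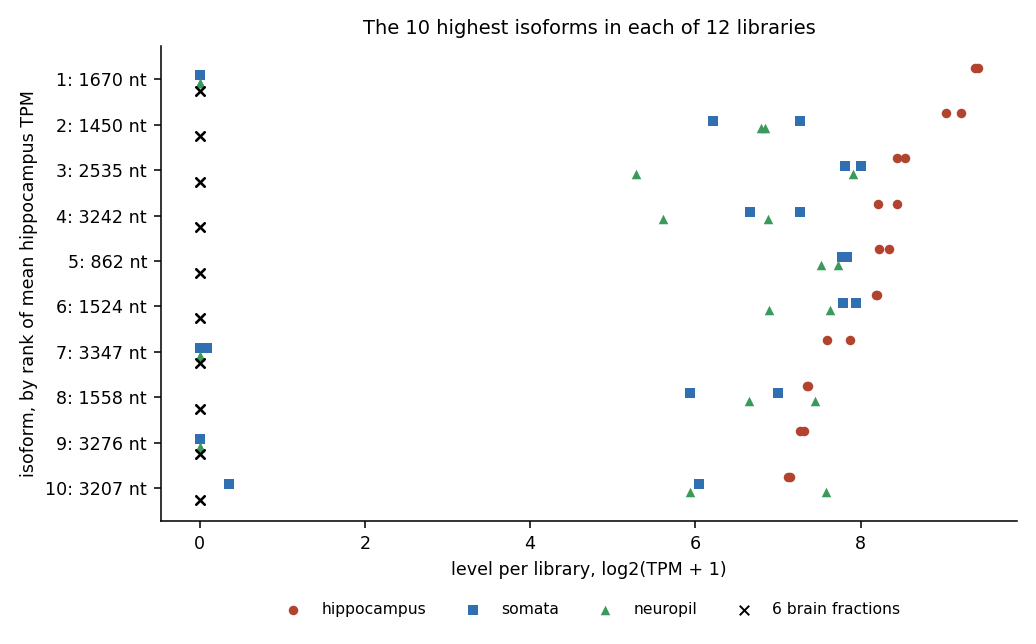
Level of the 10 isoforms with the highest mean hippocampus TPM in each of the 12 libraries, as log2(TPM + 1), with 1 mark per library and the isoforms named by rank and read length. The hippocampus marks of each isoform lie close together at the right, the 6 brain marks lie at 0 by the choice of isoforms, and the CA1 marks of ranks 1, 7 and 9 lie at or next to 0.

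The 4 CA1 libraries were not used to choose the isoforms and show how far they are found in other hippocampal RNA. In these, 465 of the 736 isoforms (63.2%, against 97.1% of the others) had a level above 0 in at least 1 library, and 57 (7.74%, against 69.8%) in all 4. A further 211 were found in 1 library, 128 in 2 and 69 in 3. The counts were similar in both compartments: 232 and 216 isoforms were above 0 in the 2 somata libraries and 248 and 206 in the 2 neuropil libraries. The median of the CA1 mean was 0.68 TPM, against 12.03 TPM for the others, and the isoforms took between 0.308% and 0.397% of all TPM in a CA1 library. Above 1 TPM in all 6 hippocampus and CA1 libraries were 41 isoforms (5.57%, against 62.5%).

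The gap in CA1 support remained at matched hippocampus levels. A level above 0 in all 4 CA1 libraries was held by 1.08% of the isoforms at 0 in brain against 23.6% of the others between 1 and 2 TPM, by 8.89% against 77.5% between 10 and 20 TPM and by 42.2% against 97.0% above 50 TPM. In at least 1 CA1 library the shares ran from 57.0% to 75.6% over the 6 level ranges, against 88.1% to 99.7%. The median CA1 mean of isoforms above 50 TPM was 19.7 TPM against 94.8 TPM. That range has no upper limit, so levels in it were not matched. The highest hippocampus mean was 677.2 TPM for the isoforms at 0 in brain and 6554.4 TPM for the others.

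**Figure D3:**
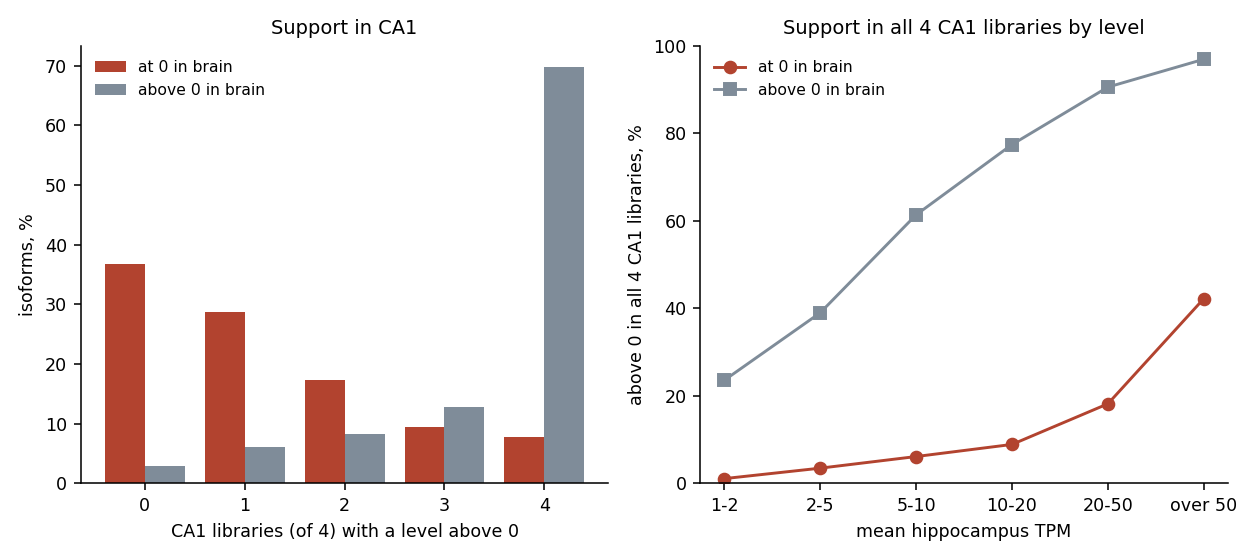
Left, percentage of isoforms above 0 in 0 to 4 of the CA1 libraries, for the 736 isoforms at 0 in brain and the 19179 others above 1 TPM in hippocampus. Right, percentage above 0 in all 4 CA1 libraries against the mean hippocampus TPM in 6 ranges. The isoforms at 0 in brain lie lower in every range, at 42.2% against 97.0% above 50 TPM.

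All 4 CA1 libraries were at 0 for 271 isoforms, which is 36.8% of those at 0 in brain and 32.5% of the 833 isoforms above 1 TPM in hippocampus that were at 0 in all 4 CA1 libraries. These 833 were 4.18% of the isoforms above 1 TPM, beside the 3.70% listed at 0 in brain, where 6 libraries and not 4 had to be at 0. Of the 271, 163 were at 0 in 1 hippocampus replicate, whereas 91 were above 1 TPM in both and 64 had a mean above 10 TPM. Besides the isoforms of 1670 and 3276 nt above, those with the highest lower replicate were isoforms of 2886 nt (88.57 and 75.63 TPM in hippocampus), 1102 nt (81.65 and 72.81 TPM) and 3413 nt (59.31 and 76.17 TPM). All 5 had levels in both hippocampus libraries and in none of the other 10.

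At the other end, the 57 isoforms found in all 4 CA1 libraries had a median hippocampus level of 23.9 TPM (22.6 TPM for the 13392 others found in all 4) and a median CA1 level of 18.0 TPM (22.9 TPM). In these isoforms the levels were thus near those of the isoforms found in brain. After the isoform of 862 nt, the highest CA1 means belonged to the isoform of 1524 nt described below, the isoform of 2535 nt above, an isoform of 4025 nt and the isoform of 1558 nt. The isoform of 4025 nt, RSN_LD3.109_sub_77352_4025_0_4025_4025_SUB0_uNAp_104, had 102.86 and 117.42 TPM in hippocampus, 178.82 and 149.87 TPM in somata and 156.44 and 141.43 TPM in neuropil. Its level in neuropil replicate 1 lay between the somata replicates, so the compartments overlapped.

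Dendrites and cell bodies of CA1 neurons hold partly different mRNAs, and neuropil was therefore compared with somata by limma on log2(TPM + 1). The mean across somata and neuropil was 1 TPM or more in 327 of the 736, which were tested. None passed an adjusted p of 0.05, and the share passing among all 20393 isoforms tested was also 0% (0 isoforms, smallest adjusted p 0.18). The study itself, by another measure and only for neuronal genes with several isoforms, reported isoforms enriched in neuropil and others enriched in somata. With a pseudocount of 0.1 TPM and a constant prior variance together, a setting added after seeing the data, limma called 15 of the 327 (4.59%), against 2.27% of all isoforms tested. With the main settings, an unadjusted p under 0.05 was held by 35 of the 327 (10.7%), 16 higher in neuropil and 19 higher in somata, against 14.8% of all isoforms tested (7.57% and 7.26%). The libraries did not overlap, with neuropil above, in 45 (13.8%, against 22.8% of all tested) and, with somata above, in 42 (12.8%, against 22.1%). The median log2 fold change of the 327 was 0.33 (neuropil over somata) against 0.01 for all isoforms tested. Without neuropil replicate 1 it was -0.24, and without any other library it lay between 0.44 and 0.92, so its sign rested on that library.

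The smallest unadjusted p among them belonged to RSN_LD3.108_sub_162142_4605_0_2301_2301_SUB0_pNAp_25, of 2301 nt, with 41.94 and 31.33 TPM in somata and 0.9 and 0 TPM in neuropil (log2 fold change -4.76 ± 0.58 SE, adjusted p = 0.18 by limma). It had 74.74 and 138.1 TPM in whole hippocampus. RSN_LD1.110_ccs_20696_522_0_522_522_SUB0_pNAp_31, of 522 nt, had 23.89 and 14.5 TPM in somata and was listed at 0 in both neuropil libraries. In the other direction, RSN_LD4.104_ccs_143003_1271_0_1271_1271_SUB0_uNAp_33, of 1271 nt, had 24.05 and 17.17 TPM in neuropil, and RNN_LD3.107_ccs_37513_2606_0_2606_2606_SUB0_pTNp_27, of 2606 nt, had 10.08 and 18.08 TPM. Both were listed at 0 in the 2 somata libraries. The adjusted p of these 3 was between 0.18 and 0.19 by limma, so none of the 4 passed. In all, 28 of the 736 isoforms (3.80%, against 1.65% of the others) were above 0 in both somata libraries and at 0 in both neuropil libraries, and 23 (3.12%, against 1.21%) the other way round. Both counts are part of the isoforms found in exactly 2 CA1 libraries, which were also more frequent in this set (17.4%, against 8.34%). The higher shares are thus no measure of compartment specificity.

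Read length, which is part of the identifier, was alike in both sets. It ran from 409 to 18942 nt with quartiles of 1432, 2247.5 and 2868.5 nt, against 1463, 2257 and 2997.5 nt for the others. Circular consensus reads, in which a molecule is read repeatedly, gave 515 of the isoforms (70.0%, against 72.4%), and single subreads gave 221. The share of isoforms at 0 in brain was 3.72% up to 700 nt, 2.08% between 700 and 1000 nt and 4.48% between 1000 and 1500 nt. It lay between 3.53% and 3.97% from 1500 to 4000 nt and was 1.85% above 4000 nt, where 21 of 1135 isoforms were at 0 in brain.

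The isoforms at both ends of the length range were each found in only some of the hippocampus and CA1 libraries. The longest, a subread of 18942 nt, had 3.9 and 16.16 TPM in hippocampus, 6.72 TPM in somata replicate 1 and 0 in the other CA1 libraries. The next, of 9758 nt, had 3.13 and 0 TPM in hippocampus and 8.32 TPM in neuropil replicate 1 alone within CA1. The shortest, of 409 nt, had 61.19 and 0 TPM in hippocampus, 15.38 and 56.97 TPM in somata and 0 in neuropil. The one of 412 nt had 3.77 and 0 TPM in hippocampus and 0 in CA1. Only the longest of these 4 was above 0 in both hippocampus replicates.

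**Figure D4:**
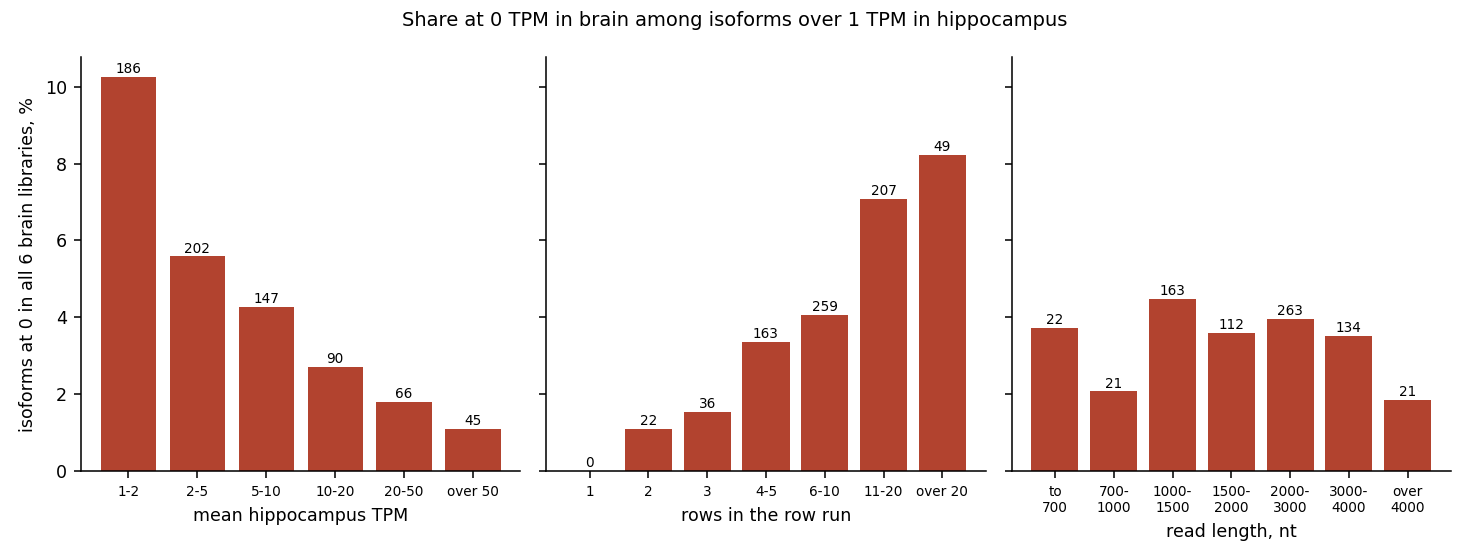
Percentage of isoforms at 0 in all 6 brain libraries among the 19915 isoforms above 1 TPM in hippocampus, by mean hippocampus TPM (left), by number of rows in the row run (middle) and by read length in nt (right), with the number of isoforms at 0 in brain above each bar. The share falls from 10.2% to 1.11% with the level, rises from 0% to 8.24% with the size of the run, and has no steady trend with length.

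The rows of the tables are ordered so that isoforms of the same gene lie together. The identifiers ascend over a stretch of rows and then start again, and such a stretch is called a row run here. The 3 tables have the same order and 6012 row runs, 846 of them with a single row. The study's lists of open reading frames pair 543 isoforms with a gene, and for all 101 genes with 2 or more listed isoforms these lay in the same run. A run is not always a single gene: 5 of the 380 runs with a listed isoform held isoforms of 2 or more listed genes. The lists cover few isoforms, so this count can miss such runs. The study counted more gene loci than there are row runs, so further runs must hold isoforms of more than a single locus. Run sizes, totals and shares below may therefore mix genes. None of the 736 isoforms is itself in these lists, so none is given a gene name here.

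No isoform at 0 in brain lay alone in its run, although 844 of the others did. In every case the run held another isoform above 0 in brain, and for 729 of the 736 that isoform or another of the run had a brain mean above 1 TPM. This was also so for 18242 of the 18335 others that did not lie alone (99.5%). Counted once per isoform, the runs had a median total of 88.4 TPM in hippocampus and 68.4 TPM in brain. For the others, some of which lay in the same runs, the medians were 88.7 and 68.8 TPM. The tables were made separately, so run totals of hippocampus and brain are set side by side without a test. Within runs, the totals lay within 2-fold between hippocampus and brain for 485 of the 624 runs that held an isoform at 0 in brain (77.7%, against 79.2% of the 5376 other runs with an isoform above 1 TPM). In 126 runs (20.2%, against 16.5%) the hippocampus total was more than 2-fold higher, and in 13 (2.08%, against 4.35%) the brain total was. The SD of the difference between hippocampus replicates was 0.33 on the log2(TPM + 1) scale for run totals, again counted per isoform, against 2.30 for the single isoforms. For the others these values were 0.36 and 1.40, so the smaller spread of run totals was not particular to this set.

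Within their runs these isoforms were minor. Their median share of the run's hippocampus TPM was 6.15% (quartiles 2.76% and 14.2%), against 19.1% for the others (6.81% and 46.5%). Only 33 (4.48%, against 31.1%) were the highest isoform of their run in hippocampus, and 14 (1.90%, against 23.0%) held over 50% of it. These contrasts were not matched for level or run size, and the others include the 844 isoforms that lie alone and hold all of their run. Counted per isoform, the runs of the isoforms at 0 in brain were also larger, with a median of 8 rows against 5. The share of isoforms at 0 in brain was 0% for runs of 1 row, 1.11% for 2 rows, 3.36% for 4 to 5 rows, 7.08% for 11 to 20 rows and 8.24% for more than 20 rows. This rise was seen within levels: for 1 to 3, 4 to 10 and 11 or more rows the shares were 2.75%, 5.85% and 8.78% up to 10 TPM, and 0.391%, 2.06% and 4.67% above 10 TPM. The nearest read length in the run differed by a median of 167 nt in runs of 2 to 3 rows (268 nt for the others), 81 nt in runs of 4 to 10 rows (94 nt) and 34 nt in runs of 11 or more rows (36 nt). It lay within 50 nt for 15.5%, 35.3% and 62.1% of the isoforms in these runs, against 13.0%, 32.9% and 60.2% of the others.

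**Figure D5:**
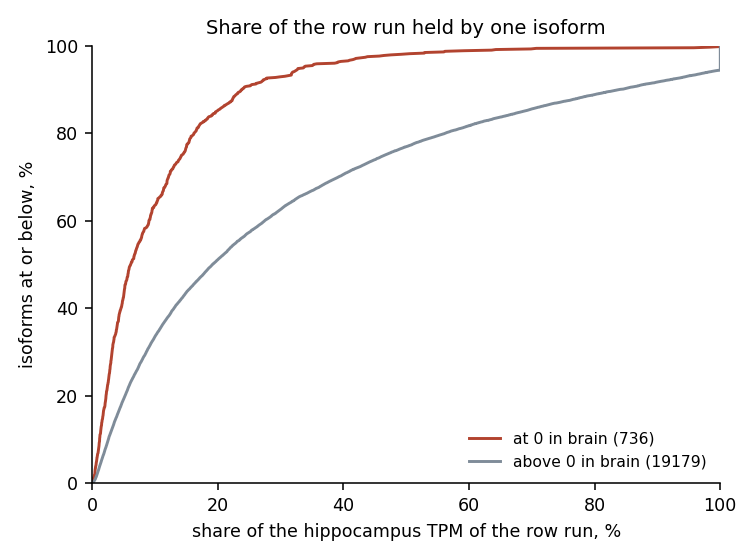
Cumulative percentage of isoforms (vertical axis) against the share of the hippocampus TPM of its row run that an isoform holds (horizontal axis, %), for the 736 isoforms at 0 in brain and the 19179 others above 1 TPM. The curve of the isoforms at 0 in brain rises early, with a median share of 6.15% against 19.1%, and the jump of the other curve at 100% is mostly isoforms that lie alone in their run.

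The 33 isoforms that led their run in hippocampus had a median of 17.3 TPM, 10 of them were above 0 in all 4 CA1 libraries, and 6 were at 0 in all 4. The isoform of 1450 nt above held 69.9% of the 799.67 TPM of its run, and the isoform of 1558 nt held 64.3%. The isoform of 862 nt held 59.2% of a run of 2 rows. RSN_LD2.103_ccs_99887_1435_0_1435_1435_SUB0_pTNp_46, of 1435 nt, held 98.3% of a run of 2 rows, with 37.65 and 108.11 TPM in hippocampus and between 17.7 and 22.44 TPM in the 4 CA1 libraries. Its run had a brain mean of 9.90 TPM. An isoform of 1626 nt, RSN_LD2.109_ccs_112244_1626_0_1626_1626_SUB0_pTNu_26, held 100% of a run of 2 rows, with 11.84 and 14.29 TPM, whereas the whole brain level of that run, 25.2 TPM, lay on the other row. In this pair of rows hippocampus and whole brain each listed a different isoform, and whether both belong to the same gene is unknown.

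The rows directly before and after the isoforms had levels slightly below those of the table as a whole. The row before lay in the same run for 636 of the 736, and 609 (82.7%) of these preceding rows were above 0 in at least 1 brain library, with a median of 3.99 TPM in hippocampus and 2.98 TPM in brain. The row after lay in the same run for 617, and 625 (84.9%) were above 0 in brain, with medians of 4.46 and 3.15 TPM. Over all isoforms 86.9% were above 0 in brain and the medians were 5.38 and 3.97 TPM. At least 1 of the 2 adjacent rows was above 0 in brain for 713 isoforms. The isoforms were mostly scattered, since 530 were the only one at 0 in brain and above 1 TPM in their run, and 94 runs held 2 or more.

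The run with the most, 5 such isoforms, had 24 rows. Those 5 had 3.13 and 8.49, 0 and 3.93, 1.87 and 18.59, 0.2 and 11.62, and 3.78 and 0 TPM in hippocampus. The third of them, of 3668 nt, was found in all 4 CA1 libraries, between 1.85 and 7.02 TPM. The fourth, of 1978 nt, was found in 3 of them, and the other three were at 0 in CA1. The isoform with the most TPM over the CA1 libraries of this run, of 3943 nt, had 10.82 and 7.02 TPM in hippocampus and between 0 and 12.21 TPM in brain. In this run of 24 rows, most isoforms were thus listed at 0 in some libraries of both hippocampus and brain.

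Some isoforms at 0 in brain lay between rows that the study's lists pair with the same gene, and these neighbours give the gene as a setting only. The isoform of 1524 nt, RNN_LD3.106_ccs_47533_1524_0_1524_1524_SUB0_pTNp_19, lay between rows of Ckmt1, the mitochondrial creatine kinase that feeds the phosphocreatine energy store of neurons. It had 290.55 and 293.94 TPM in hippocampus, 245.63 and 220.69 TPM in somata and 117.7 and 197.29 TPM in neuropil. The Ckmt1 row before it, of 1099 nt, had 134.96 and 134.75 TPM in hippocampus and between 63.05 and 209.16 TPM in the 6 brain libraries. The row directly after it, of 1174 nt and not in the lists, had the opposite pattern, with 0 TPM in hippocampus and CA1 and between 41.19 and 140.66 TPM in the 6 brain libraries. The next listed Ckmt1 row, of 1517 nt and 3 rows after the isoform, had 2.15 and 0 TPM in hippocampus and up to 18.11 TPM in brain. The isoform at 0 in brain was thus higher than these neighbours in both hippocampus libraries.

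Between rows of Gsn, which encodes the actin-severing protein gelsolin, lay isoforms of 2147 and 5016 nt. The first had 14.18 and 35.11 TPM in hippocampus and between 0.55 and 9.69 TPM in CA1. The second had 8.54 and 12.53 TPM in hippocampus and 6.55 TPM in somata replicate 1, with 0 in the other CA1 libraries. The Gsn row before them, of 4843 nt, had 43.99 and 86.79 TPM in hippocampus and between 2.71 and 10.23 TPM in brain. The levels of that row were thus low in brain as well.

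The mean hippocampus levels near Gnptg and Tmtc4 were lower. Those between rows of Gnptg, a subunit of the enzyme that tags lysosomal hydrolases with mannose phosphate, had 0 and 2.92 TPM and 0 and 14.52 TPM in hippocampus. The isoform of 2855 nt between rows of Tmtc4 had 1.07 and 8.13 TPM. The isoform near Ckmt1 and both near Gsn were above 0 in both hippocampus replicates at more than 8 TPM, whereas both near Gnptg were listed at 0 in replicate 1.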

How the data were processed

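Illumina RNA-seq was used from 2 libraries each of hippocampus, CA1 somata, CA1 neuropil and each of the brain fractions (ribosome-free, monosome, polysome). The authors trimmed adapters with flexbar and ran RSEM with Bowtie 2 against 28268 full-length transcripts, and deposited TPM per isoform and library with 2 decimals. The submitters' processing notes name RSEM, TopHat2 and rn6; the RSEM version is not given in the sources used here. Polyadenylated RNA is given in the labels, but a total RNA kit for brain in the methods, and the methods give single-end hippocampus reads but paired-end RSEM arguments. The 3 tables were treated as made separately. Depth is unknown, so no counting intervals were computed. The 6 ribosome footprinting libraries were not analysed here.

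Isoforms were counted in Python 3.11.15 with pandas 2.3.3 and numpy 2.4.6, and plots were drawn with matplotlib 3.10.9. Neuropil and somata were compared with limma 3.58.1 in R 4.3.3 (lmFit, eBayes with trend) on log2(TPM + 1), two-sided, over isoforms reaching a mean of 1 TPM, and called at a Benjamini-Hochberg adjusted p under 0.05. The test was tried on simulated data. Named were the 10 highest isoforms with their adjacent rows, the 5 highest in CA1, the 5 highest at 0 in CA1, those next to the limits, the 2 longest and shortest, and the 2 smallest p in each direction. The isoforms and the naming rule were chosen with earlier results of these data known; row runs, leading isoforms of a run and genes of flanking rows were added after their values were seen. Alternatives changed the limits, pseudocount, filter, scaling, prior variance and replicate block and left out each library. The result for an isoform flanked by listed rows is not reported here.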

Additional observations from a re-analysis of the deposited data

How the results depend on the processing

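The number of isoforms at 0 in brain depended on the limits. It was 320 with a level above 1 TPM required in both hippocampus replicates, 348 with a mean above 5 TPM, 201 above 10 TPM and 1253 with up to 1 TPM allowed in the brain libraries, and their share of isoforms over the limit was 2.01%, 2.40%, 1.82% and 6.29%. With single libraries left out the number lay between 531 and 866 and the share between 2.91% and 4.35%. The median hippocampus level was 11.1, 11.7, 22.9 and 3.52 TPM under those 4 limits and 6.35 to 6.55 TPM with 1 hippocampus library left out. The number at 0 in 1 hippocampus replicate was 85 above 5 TPM and 586 with up to 1 TPM in brain. With up to 1 TPM in brain, 888 isoforms were above 0 in at least 1 CA1 library and 150 in all 4. With a level above 1 TPM required in both replicates, 229 were above 0 in at least 1 CA1 library, and all 320 lay in runs with another isoform above 0 in brain. With single CA1 libraries left out, 386 to 425 were above 0 in at least 1 and 69 to 79 in all that remained. Median read length was 2337 nt with up to 1 TPM in brain and 1978 nt over circular consensus reads alone. Neuropil against somata gave 0 calls with every other pseudocount, filter, scaling, prior and library left out that was tried, but 463 calls (2.27% of those tested), 15 of them among the 327 at 0 in brain (4.59%), with a pseudocount of 0.1 TPM and a constant prior variance together, a setting chosen after seeing the data. The 4 isoforms named for the smallest p kept their direction under all 12 alternatives. They were picked by p, and their compartments did not overlap, so these changes could hardly turn the sign and are no test of it. Under that last setting 3 of the 4 passed (lowest adjusted p 0.031 by limma). A library left alone in its group was assumed to vary like the other group.

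Equal replicate numbers were not shown to pair the CA1 libraries: same-numbered libraries deviated together with a correlation of 0.033 over the isoforms tested. With the replicate number as a block, limma called 0 isoforms, and 2699 had an unadjusted p under 0.05 against 3024 without the block.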
